A study of Mus musculus with 6 samples.

Results

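The 7 Schlafen genes Slfn1, Slfn2, Slfn3, Slfn4, Slfn5, Slfn8 and Slfn9 were described in mouse bone marrow-derived macrophages, cells grown in culture from marrow precursors. They are the rows with these symbols, 7 of the 54532 genes in the table. The family was chosen by its counts in these same 6 libraries, so the differences below describe the members and support nothing further. RNA was sequenced from 3 XWT libraries, whose macrophages carried the floxed Xbp1FL/FL genotype, and 3 XKO libraries of the genotype Xbp1ΔMf, in which Xbp1 is lost in macrophages by its label. All donors were C57BL/6 mice aged 32 to 34 weeks. Every culture was primed with LPS, the bacterial lipopolysaccharide sensed by TLR4, and spent 48 h in the conditioned medium of wild-type mouse hepatocytes. No culture without LPS or without that medium was analysed here, so both groups carry those exposures. The labels do not name the Cre driver, and they leave unsaid whether replicate libraries had different donors or culture dishes, so a p-value measures the spread between these libraries, which may be technical.

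Schlafen proteins are known as interferon- and LPS-inducible regulators of cell growth, immune cell quiescence and RNA metabolism. They share an amino-terminal core that in several members binds or cleaves transfer RNA, and the long members add a helicase-like carboxy-terminal part and are nuclear. In myeloid cells Slfn4 is known as the family member most strongly induced by type I interferon and Toll-like receptor ligands, and its level falls as precursors mature into macrophages.

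All 7 members lie in a cluster on chromosome 11 (mm10 coordinates as the table gives them, which equal those of GENCODE M21 for each member). In their order along the chromosome these are Slfn5 (82951349 to 82964840, plus strand), Slfn9 (82978390 to 82991830, minus), Slfn8 (83002158 to 83020810, minus), Slfn2 (83065112 to 83070678, plus), Slfn1 (83116849 to 83122670, plus), Slfn4 (83175186 to 83190216, plus) and Slfn3 (83191330 to 83215154, plus). The longest coding sequence of each gene in GENCODE M21 gave 337 residues for Slfn1 and 378 for Slfn2, the short members. It gave 602 for Slfn4 and 640 for Slfn3, the intermediate members, and 884 for Slfn5, 910 for Slfn8 and 910 for Slfn9, the long members. Slfn8 and Slfn9 were identical at 85.8% of 910 aligned residues and Slfn3 and Slfn4 at 83.9% of 595. The short pair Slfn1 and Slfn2 was identical at 55.3% of 333 aligned residues, while Slfn4 and Slfn5 shared 37.0% of 516.

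Stretches before RefSeq start sites of the genes are shown. Letters chosen after these sequences had been seen divide the family by protein length, as exact matches only. Sequences are from RefSeq (GRCm38.p6), where all 7 members had an entry, and are written 5′ to 3′ on the strand of the gene. Each covers the 120 bases before a RefSeq start site, except that of Slfn5, which runs from 237 to 118 bases before it and lies within the annotated span of the gene. Capitals in the long members mark the core of an interferon response element, GAAA, any 2 bases and GAAA, on either strand.
Slfn8, chr11:83020811-83020930, minus strand: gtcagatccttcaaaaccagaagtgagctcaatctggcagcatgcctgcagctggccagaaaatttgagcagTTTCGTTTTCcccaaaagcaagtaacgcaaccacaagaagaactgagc
Slfn9, chr11:82991831-82991950, minus strand: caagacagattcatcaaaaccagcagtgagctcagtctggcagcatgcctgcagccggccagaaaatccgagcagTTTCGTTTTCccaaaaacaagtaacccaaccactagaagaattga
Slfn5, chr11:82951865-82951984, plus strand: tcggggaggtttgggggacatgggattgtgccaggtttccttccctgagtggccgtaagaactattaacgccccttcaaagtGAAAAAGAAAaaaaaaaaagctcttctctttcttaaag
In the short and intermediate members, capitals mark the letters ACTTCCTG on either strand, which hold the GGAA core bound by ETS factors.
Slfn1, chr11:83116700-83116819, plus strand: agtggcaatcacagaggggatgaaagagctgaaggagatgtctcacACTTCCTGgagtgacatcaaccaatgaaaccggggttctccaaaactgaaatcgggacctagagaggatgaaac
Slfn2, chr11:83064992-83065111, plus strand: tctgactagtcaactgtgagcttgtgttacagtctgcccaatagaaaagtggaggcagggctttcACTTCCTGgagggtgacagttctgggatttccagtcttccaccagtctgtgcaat
Slfn3, chr11:83191210-83191329, plus strand: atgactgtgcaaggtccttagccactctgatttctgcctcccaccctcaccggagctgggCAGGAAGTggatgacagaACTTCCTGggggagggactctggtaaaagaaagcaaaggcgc
Slfn4, chr11:83175066-83175185, plus strand: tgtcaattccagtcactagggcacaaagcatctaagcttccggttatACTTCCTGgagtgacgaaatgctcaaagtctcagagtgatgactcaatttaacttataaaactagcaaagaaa

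In the 250 bases before each RefSeq start, the interferon element core was found in 3 of 7 members, the long Slfn5, Slfn8 and Slfn9, and in 2.98% of all 32851 promoters in the table. ACTTCCTG was found in the other 4, Slfn1 to Slfn4, and in 2.69% of all promoters. The match of Slfn9 began 45 bases before its start and that of Slfn8 began 48 bases before the upstream one of its RefSeq starts, and the 250 bases upstream of these neighbouring genes were identical at 85.9% of 241 aligned bases. Slfn4 also held the AP-1 letters TGANTCA, beginning 34 bases before its start, which occur in 6.75% of all promoters. None of the 7 held TGACGTGG, the letters of an XBP1 site (0.563% of all promoters), the ER stress element, CCAAT, any 9 bases and CCACG (0.113%), the STAT letters TTCNNNGAA (7.02%) or the NF-kB letters GGG, any 2 bases and TTTCC (1.41%). These 7 motifs were chosen after the sequences had been seen, both strands were searched, and a match is a description of the letters only. Only exact letters counted as a match. The Slfn1 stretch AAAACTGAAA and the Slfn4 stretch TTTCACTTTT miss the interferon element core by their first and last base, respectively. The Slfn2 stretch TTTCACTTCC misses it only by its next-to-last base, and the Slfn3 stretch GTAAAAGAAA only by the base after its first. Each member without an exact core thus held a stretch that misses it by a single base. The division by protein length rests on exact letters, and such near matches were not counted over all promoters. Given their upstream identity, the matches of Slfn8 and Slfn9 are not separate observations.

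The libraries held 28354866 to 30891729 counts. Xbp1, the targeted gene, was lower in all 3 XKO libraries, at 148.9 ± 15.04 CPM in XWT and 77.6 ± 1.58 CPM in XKO (SD, n = 3 each; edgeR adjusted p = 1.93e-06; CPM are counts relative to the scaled library total). The count covers the whole gene, so it is a partial check of the labels. All 12 macrophage markers passed the filter on low counts, among them Adgre1 (the F4/80 antigen) at 6614 ± 328 CPM in XWT and 5750.3 ± 216 CPM in XKO (SD, n = 3 each). On the first principal component of all tested genes, XWT 3 stood apart from the other 2 XWT libraries on the side of XKO (-12.9 against -25.6 and -28.4, with XKO at 21.1 to 23.7).

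Levels between members were compared per length, in the FPKM that the authors deposited (fragments per kilobase of gene, relative to the library total), as a description. Slfn2, known for keeping T cells and monocytes quiescent and for protecting transfer RNA from cleavage, was by far the most abundant at 281 ± 30.1 FPKM in XWT and 280.04 ± 10.2 FPKM in XKO (SD, n = 3 each). Slfn5, a long member known as an interferon-induced nuclear regulator of transcription, followed at 57.8 ± 4.25 and 75.2 ± 4.01 FPKM. The long members Slfn8 and Slfn9 stood at 34.0 ± 2.89 and 10.8 ± 1.498 FPKM in XWT. Slfn3, known from T cells and intestinal epithelium, stood at 3.82 ± 0.311 FPKM, Slfn1, a growth regulator of thymocytes, at 3.32 ± 0.480 FPKM and Slfn4 at 0.666 ± 0.223 FPKM in XWT. The order Slfn2, Slfn5, Slfn8, Slfn9, Slfn3, Slfn1, Slfn4 was the same in both groups, and counts per kilobase of the table's gene length gave it as well. Neighbours in this order did not overlap between libraries, except Slfn3 and Slfn1 in XWT, where the lowest Slfn3 value was 3.46 and the highest Slfn1 value 3.80 FPKM. Slfn2 alone made up 67.5% to 74.9% of the family's summed FPKM in the XWT libraries and 66.5% to 66.9% in the XKO libraries.

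**Figure D1:**
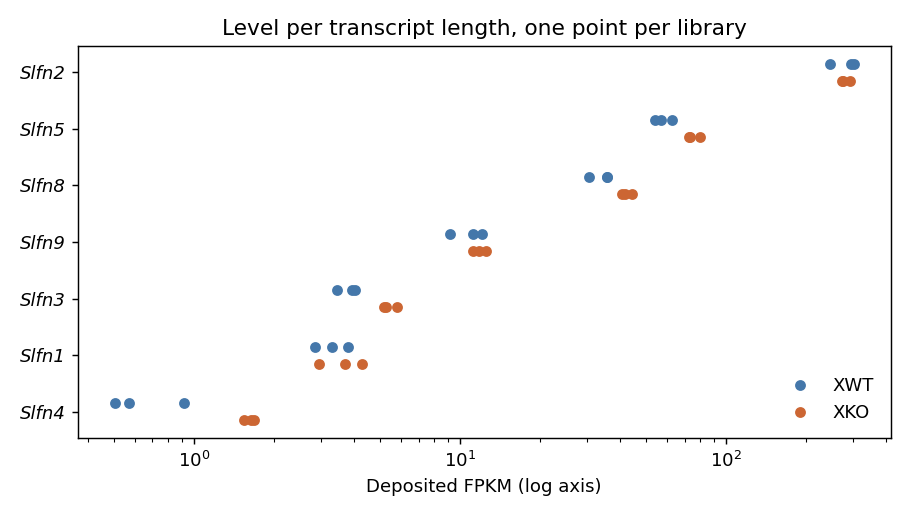
Deposited FPKM (log axis) of the 7 Schlafen genes, one point per library, XWT in blue and XKO in orange. Slfn2 lies between 246 and 301 FPKM, and Slfn4 between 0.506 and 0.921 FPKM in XWT and between 1.54 and 1.68 FPKM in XKO.

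In XKO 4 members rose and 0 fell. The test was edgeR's quasi-likelihood test with Benjamini-Hochberg adjustment over the whole table, called under 0.05. By it 4 of 7 members were higher and 0 lower, where 14.0% of the 14333 genes tested were called, 6.00% higher and 7.99% lower. No member had an unadjusted p under 0.05 without being called, and DESeq2 and limma-voom also gave 4 higher and 0 lower. The 4 were Slfn4, Slfn3, Slfn5 and Slfn8, with rises of 1.246-fold to 2.42-fold. The median log2 fold change was 0.32 over the 7 members and 0.0014 over all genes tested. The groups did not overlap for these 4 members, with every XKO value above every XWT value, as for 17.5% of all genes tested (36.2% in either direction). All 7 members passed the filter on low counts. In these bulk samples more cells expressing a gene and more RNA per cell cannot be told apart.

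**Figure D2:**
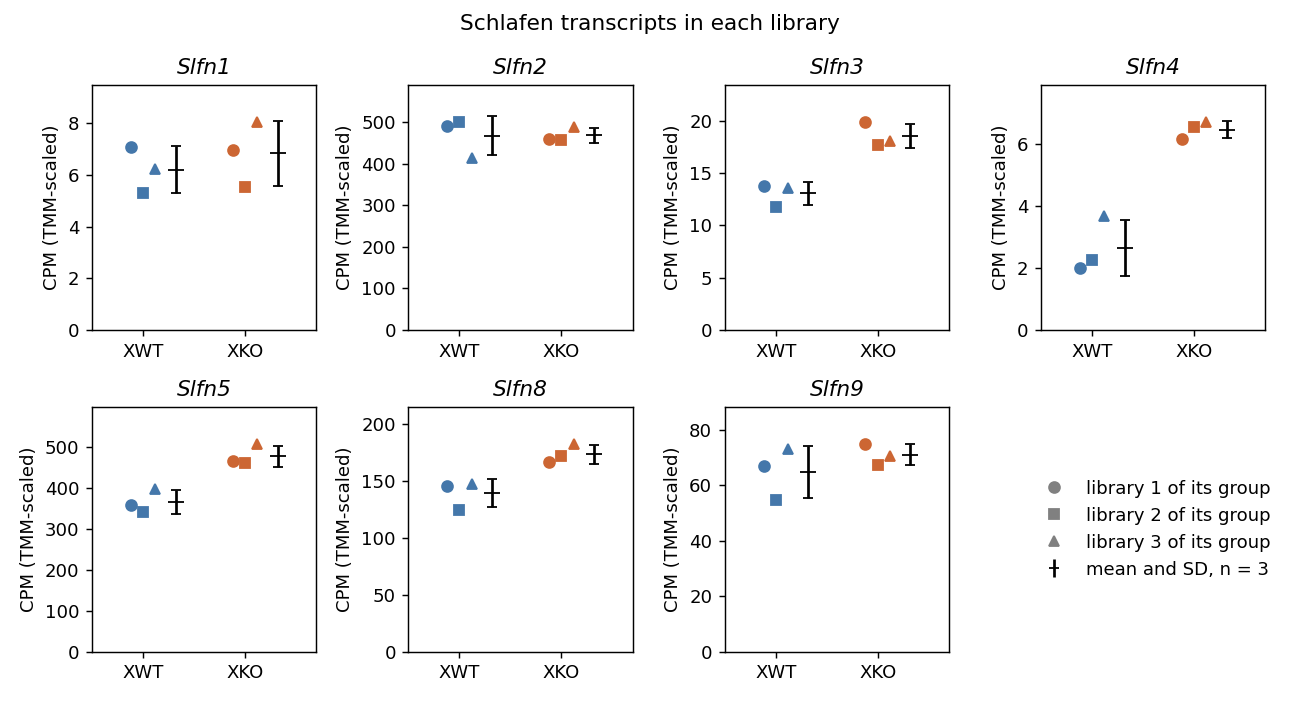
Scaled CPM of each member by library (circle, square and triangle for libraries 1, 2 and 3 of a group), with the mean and SD of each group (n = 3) beside the points and each axis starting at 0. The groups are separate for Slfn3, Slfn4, Slfn5 and Slfn8 and overlap for Slfn1, Slfn2 and Slfn9.

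Slfn4, the myeloid interferon- and LPS-inducible member, changed most. It had 54, 67 and 115 counts in XWT 1 to 3 and 191, 201 and 205 counts in XKO 1 to 3, which is 2.00, 2.26 and 3.68 CPM against 6.15, 6.54 and 6.69 CPM. The XKO libraries were close to one another, and XWT 3 was the highest of its group but still below them. Its log2 fold change, 1.28 (standard error 0.202), is a 2.42-fold rise (edgeR adjusted p = 0.000917). It was 1.60 without XWT 3 and between 1.11 and 1.31 without any other single library, and the call held in each case. Of the genes tested, 99.3% had a lower log2 fold change.

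Slfn3, which lies directly beside Slfn4 in the same orientation, stood at 13.8, 11.8 and 13.6 CPM in XWT 1 to 3 and at 19.8, 17.7 and 18.1 CPM in XKO 1 to 3. All XKO libraries were above all XWT libraries, and within XWT no library stood far from the others. This is a 1.42-fold rise, or 0.51 on the log2 scale (standard error 0.099, edgeR adjusted p = 0.00416). The balance within the pair shifted as well, since the ratio of Slfn4 to Slfn3 FPKM, which needs no scaling between libraries, was 0.125, 0.165 and 0.233 in XWT and 0.267, 0.317 and 0.319 in XKO.

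Slfn5 had 359, 341 and 398 CPM in XWT 1 to 3 and 467, 461 and 508 CPM in XKO 1 to 3. The lowest XKO value lay 1.16-fold above the highest XWT value, which was again that of XWT 3. On the log2 scale the rise was 0.39, with a standard error of 0.074, or 1.31-fold (edgeR adjusted p = 0.00367). Because Slfn5 is abundant, this was the largest absolute gain in the family, 112 CPM between the group means.

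Slfn8, a long member close to Slfn9, stood at 145.6, 125 and 147 CPM in XWT 1 to 3 and at 167, 172 and 183 CPM in XKO 1 to 3. The groups were separate, though by a narrower margin than for Slfn5. The rise of 0.32 on the log2 scale had a standard error of 0.075 and equals 1.246-fold (edgeR adjusted p = 0.0139). The call ended without XKO 2 (edgeR adjusted p = 0.0658) and without XKO 3 (0.0958), and the adjusted p lay between 0.000822 and 0.0958 over the 15 alternatives.

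The other 3 members were not called. Slfn2, the most abundant, had 491, 500.1 and 413 CPM in XWT 1 to 3 and 459, 458 and 489 CPM in XKO 1 to 3. Its XKO values fell inside the XWT range, with XWT 3 the lowest of all 6 libraries, and the log2 fold change of 0.0016 had a 95% interval of -0.17 to 0.17. Slfn9 stood at 66.9, 54.7 and 73.0 CPM in XWT 1 to 3 and 74.9, 67.4 and 70.7 CPM in XKO 1 to 3. These groups overlapped, XWT 2 being the lowest, with a log2 fold change of 0.13 and a 95% interval of -0.072 to 0.33. It was 0.019 without XWT 2 and 0.22 without XWT 3. Slfn1 had 7.09, 5.29 and 6.24 CPM in XWT 1 to 3 and 6.96, 5.53 and 8.03 CPM in XKO 1 to 3. Its log2 fold change was 0.14 with a 95% interval of -0.20 to 0.49, so that a rise as large as that of Slfn5 was not excluded at this precision for Slfn1. With 1 library left out the value ran from 0.0097 (XKO 3) to 0.27 (XKO 2). For Slfn2 the interval ended at 0.17, below the values of the 4 members that rose.

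Within single libraries, Slfn5 and Slfn8 gained on Slfn2. The ratio of Slfn5 to Slfn2 FPKM was 0.193, 0.180 and 0.253 in the XWT libraries, against 0.267, 0.265 and 0.274 in the XKO libraries. For Slfn8 over Slfn2 the ratios were 0.121, 0.102 and 0.145 in XWT and 0.148, 0.153 and 0.152 in XKO. In both ratios XWT 3 stood nearer to XKO than to the other XWT libraries, and the XKO libraries were close together.

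Some reads cannot be assigned to a single member. Of all stretches of 50 bases in the annotated transcripts, 11.3% of those of Slfn4 and 16.0% of those of Slfn3 also occur in another gene, as do 14.6% for Slfn8, 11.9% for Slfn9, 11.1% for Slfn5, 4.27% for Slfn2 and 0.606% for Slfn1. The partner sharing most with Slfn4 was Slfn3 (6.28% of its stretches), and for Slfn8 it was the pseudogene Slfn10-ps (10.1%). For Slfn5 it was the antisense gene Slfn5os (7.38%), which overlaps it on the opposite strand. The pseudogene Gm11427, to the right of Slfn3, held 6.45% of the stretches of Slfn3 and 4.01% of those of Slfn4. It is left out of the sum of Slfn3 and Slfn4 below. No source used here says how the counting treated such reads, so values of the intermediate and long members are uncertain to that extent. Summed over neighbours of like length, Slfn3 and Slfn4 together stood at 15.7 ± 1.61 CPM in XWT and 25.0 ± 0.899 CPM in XKO, a log2 ratio of 0.67. Slfn8, Slfn9 and Slfn10-ps together stood at 226 ± 24.5 and 273 ± 8.24 CPM, a log2 ratio of 0.27, and Slfn1 and Slfn2 at 474 ± 47.5 and 475 ± 18.3 CPM, a log2 ratio of 0.0035 (SD, n = 3 each; values with no test).

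Set beside the sequences shown above, the 3 long members with an exact interferon element core had log2 fold changes of 0.39 (Slfn5), 0.32 (Slfn8) and 0.13 (Slfn9). The 4 members with ACTTCCTG had 1.28 (Slfn4), 0.51 (Slfn3), 0.14 (Slfn1) and 0.0016 (Slfn2). The interval of Slfn9 (-0.072 to 0.33) includes the value of Slfn8, and differences between members were not tested.

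Other rows with a Schlafen symbol were Slfn10-ps, Slfn14, Slfnl1 and Slfn5os. Slfn10-ps, a transcribed pseudogene between Slfn8 and Slfn2, rose from 22.0 ± 3.22 to 28.6 ± 1.38 CPM (SD, n = 3 each; log2 fold change 0.38, standard error 0.103, edgeR adjusted p = 0.0263), and the groups did not overlap. Its call ended without XWT 2 (edgeR adjusted p = 0.0642), XKO 1 (0.112), XKO 2 (0.0656) or XKO 3 (0.104). Slfn14, known from platelets and red cell precursors, had 2 counts in XWT 2 and 0 in each other library, and Slfnl1 had 0 to 4 counts per library. Slfn5os had 0 counts in each XWT library and 5, 3 and 1 in XKO 1 to 3, too few to test and, without a stated strand setting, not separable from reads of Slfn5.

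From the left end of Slfn5os to the right end of Slfn14 the cluster spans 344 kb and 27 genes of the table, of which 12 were tested. Of the 12, 7 were higher and 0 lower, beside 6.00% higher and 7.99% lower of all genes tested. The 7 were the 4 members, chosen on these same data, Slfn10-ps and 2 genes without a Schlafen symbol. Slfn10-ps shares 19.7% of its stretches of 50 bases with other genes, mostly Slfn9 (13.5%) and Slfn8 (11.8%), so the 7 are not separate observations. AI662270, a non-coding transcript to the right of Slfn3, stood at 34.0 ± 2.42 CPM in XWT and 41.6 ± 0.8997 CPM in XKO (SD, n = 3 each; log2 fold change 0.29, edgeR adjusted p = 0.0227). Gm20234, annotated antisense to Slfn2, had 5, 7 and 9 counts in XWT 1 to 3 and 25, 18 and 18 counts in XKO 1 to 3 (log2 fold change 1.45, standard error 0.412, edgeR adjusted p = 0.0328). Its exons share 0 of 717 bases with the exons of Slfn2, although reads from unspliced Slfn2 RNA could fall on them. Without XWT 2, XKO 1, XKO 2 or XKO 3 the calls of both genes ended, and that of Gm20234 also without XWT 1 (adjusted p between 0.0527 and 0.152), with DESeq2 (0.0961), with limma quality weights (0.0879) and with the replicate number as a block (0.0502). Gm11427, a transcribed pseudogene that overlaps AI662270, stood at 13.2 ± 2.48 and 17.4 ± 1.52 CPM (SD, n = 3 each; log2 fold change 0.40) and was not called (edgeR adjusted p = 0.0544). It was called with the replicate number as a block (0.0272), with DESeq2 (0.0455), limma-voom (0.0457), quality weights (0.0222) or no filter (0.00586), and without XWT 3 (0.00505). Gm11425, a pseudogene between Slfn8 and Slfn10-ps, stood at 3.53 ± 0.662 and 4.69 ± 0.240 CPM (SD, n = 3 each; log2 fold change 0.41) and was not called (edgeR adjusted p = 0.123), except without XWT 3 (0.0190). Nearest outside the cluster, Nle1 on the left (0.27, edgeR adjusted p = 0.162) and AA465934 on the right (-0.39, edgeR adjusted p = 0.591) were not called.

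**Figure D3:**
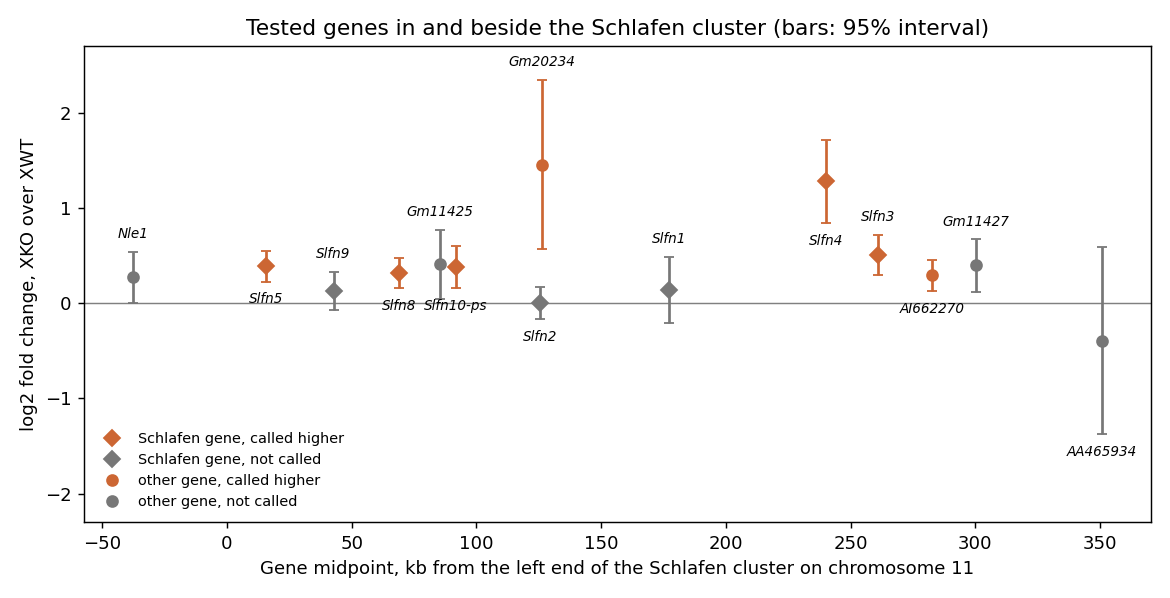
Log2 fold change of XKO over XWT with its 95% interval for the tested genes in and beside the Schlafen cluster, against the distance of the gene's midpoint from the cluster's left end in kb. Diamonds are genes with a Schlafen symbol, circles other genes, and orange marks genes called higher: Slfn5, Slfn8, Slfn10-ps, Gm20234, Slfn4, Slfn3 and AI662270.

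Schlafen genes are classed with the interferon-stimulated genes, and a list of 40 others was set beside them. Of these, 12 rose and 0 fell (edgeR, same threshold, where 6.00% of all genes tested were higher), with a median log2 fold change of 0.17. Rsad2, the antiviral viperin gene, rose by 0.39 (standard error 0.067, edgeR adjusted p = 0.00190), Herc6, a HECT-type ligase, by 0.62 (0.122, 0.00630), Gbp7, a guanylate-binding protein gene, by 0.44 (0.102, 0.0122), and Ifih1, the RNA sensor MDA5, by 0.31 (0.072, 0.0127). Over the 40 the values ran from -0.48 for Iigp1, which was not called, to 0.62 for Herc6. Slfn4, at 1.28, lay above that range, and Slfn3, Slfn5 and Slfn8 lay inside it. The number called was 6 with XWT 2 left out, 5 with XKO 1, 5 with XKO 2 and 2 with XKO 3 left out; Gbp7 was lost without XKO 3 (edgeR adjusted p = 0.0838), and Ifih1 without XKO 2 (0.0594) or XKO 3 (0.0958).

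Genes upstream of that response were also counted. Of 19 tested interferon receptor, JAK, STAT and IRF genes, 2 rose and 2 fell, with a median of -0.046; over all genes tested 6.00% rose and 7.99% fell, so counts this small are close to the background. Socs3, a feedback inhibitor of cytokine signalling, rose by 0.50 and the kinase gene Jak2 by 0.24, while the interferon gamma receptor gene Ifngr1 (-0.26) and the myeloid factor gene Irf8 (-0.25) fell (log2 scale, edgeR adjusted p = 0.00151, 0.0427, 0.0277 and 0.0389). Irf9, the DNA-binding subunit of the complex that binds interferon response elements, was not called (-0.094), nor was Stat2, another subunit (0.20, edgeR adjusted p = 0.0534). Of 21 interferon ligand genes 17 had no count in any library, and the list summed to at most 3 counts per library, so that none was tested and a difference was not detectable at this depth. Leaving out XWT 1, XKO 1, XKO 2 or XKO 3 reduced the higher genes to 1, and Jak2 also lost its call without XWT 2 (edgeR adjusted p = 0.0930). Leaving out any of the 5 libraries besides XWT 3 reduced the lower genes to 0, and leaving out XWT 3 gave 4 of each. Scaling by library size alone gave 5 and 0.

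Slfn4 and other members are also LPS-inducible, and both groups had been primed with LPS. Of 15 tested genes of TLR4 signalling, 2 rose and 2 fell, with a median of -0.055, beside 6.00% and 7.99% of all genes tested; counts this small are read no further. The receptor gene Tlr4 (0.22) and the kinase gene Tbk1 (0.26) rose, and the adaptor gene Ticam1 (-0.37) and the kinase gene Irak4 (-0.25) fell (log2 scale, edgeR adjusted p = 0.0479, 0.0337, 0.0153 and 0.0211). Higher genes numbered 3 with XWT 3 left out and 0 with any other library left out. Lower genes numbered 5 with XWT 3 left out, 2 with XWT 1, 1 with XWT 2 or XKO 1, and 0 with XKO 2 or XKO 3 left out. The 4 named genes kept their direction in each case. Slfn2 protects transfer RNA from the ribonuclease angiogenin, and of 5 tested genes of transfer RNA cleavage and processing 0 were called. The closest to the threshold were Rnase4 (-0.23, edgeR adjusted p = 0.103) and the nuclease gene Elac2 (-0.14, edgeR adjusted p = 0.232), 1 had an unadjusted p under 0.05, and DESeq2 called 0.

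**Figure D4:**
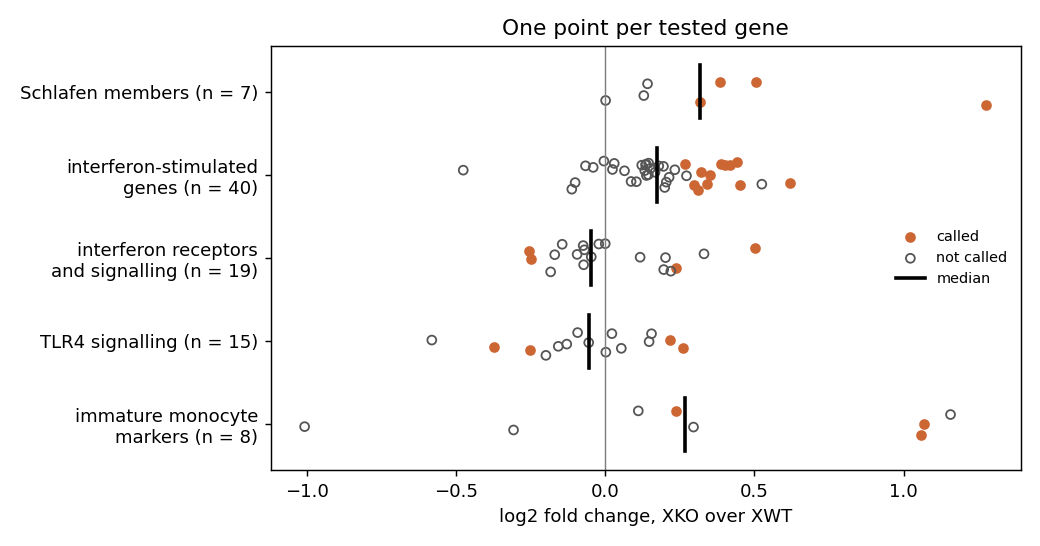
Log2 fold change of XKO over XWT, one point per tested gene, for the 7 Schlafen members, 40 interferon-stimulated genes, 19 interferon signalling genes, 15 TLR4 signalling genes and 8 immature monocyte markers. Filled points were called, open points were not, and the black bar is the median of each list (0.32, 0.17, -0.046, -0.055 and 0.27); the vertical spread within a list carries no value.

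Genes of other cell types moved between the same groups, where 6.00% of all genes tested were called higher and 7.99% lower. Immature monocyte markers, of interest because Slfn4 falls with macrophage maturation, showed 3 rises and 0 falls among 8 tested genes. Their summed level was 91.0 to 106.6 CPM in XWT and 117 to 124 CPM in XKO. The 3 were the surface antigen gene Ly6c2 (6.32 ± 0.976 to 13.2 ± 2.65 CPM), which has a close paralog, Ly6c1, the chitinase-like gene Chil3 (1.53 ± 0.125 to 3.18 ± 0.0642 CPM) and the haptoglobin gene Hp (79.7 ± 6.58 to 93.9 ± 3.53 CPM; SD, n = 3 each). The call of Hp ended when any of the 5 libraries besides XWT 1 was left out, and without robust estimation (edgeR adjusted p = 0.0508). Hp makes up most of the sum. Ccr2, the defining monocyte chemokine receptor, was not called (0.11). Nor were Plac8 (-1.01, edgeR adjusted p = 0.119), at 17, 15 and 16 counts in XWT and 9, 10 and 6 in XKO without overlap, and F13a1 (-0.31). Neutrophil markers showed 7 rises and 0 falls among 8 tested genes and summed to 30.9 to 39.9 CPM in XWT and 61.7 to 65.3 CPM in XKO. They were led by Mmp8 (0.78), Ltf (1.54), Lcn2 (0.95) and S100a8 (0.90), while Ly6g, the defining neutrophil antigen, had no count in any library. The part of either cell type in the rise of Slfn4 was not tested.

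The counts of the next lists also stand beside 7.99% lower and 6.00% higher over all genes tested. Stromal markers fell in all 10 tested members, led by Sparc (-3.46), Col1a2 (-3.36), Col3a1 (-3.87) and Bgn (-3.73). They summed to 735 to 822 CPM in XWT and 67.5 to 82.8 CPM in XKO. Macrophage markers were lower in 4 of 12, Lyz2 (-1.13) and the complement genes C1qa (-0.72), C1qb (-0.69) and C1qc (-0.72), with sums of 43215 to 51527 CPM in XWT and 27763 to 29576 CPM in XKO. Lyz2 alone, at means of 31140.2 and 14274 CPM, sets most of that difference, and the 4 became 9 without XWT 3. Markers of T and NK cells, in which Slfn1, Slfn2 and Slfn3 are also known, summed to 4.602 to 4.72 CPM in XWT and 2.45 to 2.93 CPM in XKO, with Cd3e, Cd3d, Cd8a, Trbc1 and Ncr1 at 0 in every library. Only Cd4 was tested there, and it fell (-0.92). Of the B cell markers 3 of 4 tested fell, Ighm (-1.27), Ebf1 (-3.38) and Blnk (-0.30, a call that ended without XKO 1, XKO 2 or XKO 3, adjusted p 0.0792 to 0.0801), the sums being 199 to 237 CPM and 162 to 165 CPM. Of 4 tested dendritic cell markers edgeR and DESeq2 called 0 and 1 had an unadjusted p under 0.05, Ccr9 (1.11) and Xcr1 (0.40) being closest, and the sums were 3.79 to 4.23 CPM and 4.44 to 5.16 CPM. Of 8 hepatocyte markers 7 had no count in any library. The other, the transferrin gene Trf, fell (-0.86), a call that ended without XKO 1 (edgeR adjusted p = 0.0516) or XKO 3 (0.0621). The part of these differences in the Schlafen values was not tested.

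Across the 6 libraries, members of at least 5 CPM were set beside 9350 other protein-coding genes of at least 5 CPM by the Pearson correlation of log2 CPM, as a description in which the 2 groups and a common scaling set much of each value. Most like Slfn5 were Naa50 (r = 0.994), Sdad1 (0.994) and Adgrl2 (0.994). Ttbk2 (r = 0.997), Tlr4 (0.997) and Cdc40 (0.996) came closest to Slfn8, and Stra6l (r = 0.996), Traf3 (0.996) and Slc20a1 (0.993) to Slfn3. For Slfn2 these were Rdh11 (r = 0.993), Mrpl55 (0.992) and Pmm1 (0.981), for Slfn9 Bbs7 (r = 0.995), Man2a1 (0.989) and Clock (0.989), and for Slfn1 Vps4b (r = 0.977), Ankib1 (0.973) and Arhgap24 (0.972). No gene was shared between the lists of any 2 members. Slfn4, with a mean below 5 CPM, was left out by this rule.

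In the authors' deposited table the 4 members that rose stand at 1.28 (Slfn4), 0.50 (Slfn3), 0.38 (Slfn5) and 0.31 (Slfn8) on the log2 scale, with adjusted p of 1.23e-06, 0.000812, 1.59e-05 and 0.00194. In the authors' deposited table Slfn1 (0.14), Slfn9 (0.13) and Slfn2 (-0.0042) had adjusted p of 0.715, 0.478 and 0.984.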

How the data were processed

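The authors deposited 1 table for the series. Raw read counts, 1 column a library, are deposited by Ensembl gene, and its FPKM columns were deposited with the authors' own scaling and used for levels per length only. Deposited group means (a signal on the authors' scale) were not used. The authors' log2 fold change and p-value columns, raw and adjusted, were deposited in that table. Bowtie 0.12.2, mm8 and mm10 are named, without a role, in the submitters' processing notes. Counting program and strand setting: not given in the sources used here.

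Counts were tested with edgeR 4.0.16 in R 4.3.3: filterByExpr kept 14333 of 54532 genes, libraries were scaled by TMM (factors 0.951 to 1.03) and XKO was set against XWT by quasi-likelihood with robust estimation, with Benjamini-Hochberg adjustment over all tested genes at 0.05. The biological coefficient of variation was 0.0865. The standard error is the log2 fold change over the square root of F. Correlations used log2(CPM + 0.5). Alternatives used DESeq2 1.42.0 and limma 3.58.1. Proteins were translated from GENCODE M21 and aligned with Biopython 1.88. Scripts were tested on simulated data.

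The members and the gene lists were chosen with earlier results of these data known. Named genes were the members, Xbp1, rows with a Schlafen symbol, tested genes in and beside the cluster, and up to 4 called genes (or 2 where none was called) with the smallest p from each list. The lists were interferon ligands, interferon signalling, interferon-stimulated genes, transfer RNA cleavage, TLR4 signalling, immature monocytes and markers of macrophages, neutrophils, stroma, T and NK cells, B cells, dendritic cells and hepatocytes. Irf9, Stat2, Iigp1, Ccr2, Plac8, F13a1 and Adgre1 were named after their values were seen.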

Additional observations from a re-analysis of the deposited data

How the results depend on the processing

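The 4 members called higher became 3 without XKO 2 or XKO 3, through Slfn8, and remained 4 in number under the other 13 alternatives, and 0 were lower throughout. Slfn2, never called, changed sign to -0.0040 with no filter, -0.0042 with DESeq2 and -0.022 with quality weights, and ran from -0.081 (without XWT 3) to 0.050 with 1 library left out. With the replicate number as a block, 4 members were higher and 0 lower, with Slfn4 at 1.32; over all genes 1068 were higher and 1127 lower, and 860 and 1145 without it. With 1 library left out, the genes higher over the whole table numbered 274 to 2073 and those lower 532 to 2164, so the background shares move with it. Same-numbered libraries did not deviate together (correlations -0.080, -0.027 and -0.055), so the numbers are not taken to pair them. With library size as the sole scaling, 1158 genes were higher and 749 lower (60.7% of calls higher, 42.9% with TMM), which shifted the median of all genes by 0.069, with the same 4 members called. Interferon signalling genes (2 higher, 2 lower) were 5 and 0 with library size alone, and 4 were higher with the stricter filter or quality weights, and 1 to 4 higher and 0 to 4 lower with 1 library left out. Interferon-stimulated genes (12 and 0) were 2 to 14 higher and 0 to 1 lower with 1 library left out, and 1 was lower with no filter. TLR4 genes (2 and 2) were 1 higher without robust estimation or with the block, 1 lower with library size alone, and 0 to 3 higher and 0 to 5 lower with 1 library left out. Transfer RNA genes had 1 lower with no filter. Macrophage markers (4 lower) were 7 with quality weights and 4 to 9 with 1 library left out, the hepatocyte marker 0 to 1, Slfn10-ps 0 to 1, and the other cluster genes (2 higher) 0 to 4, and 1 with the stricter filter. The stricter filter removed Gm20234, AA465934, Ebf1, Ccr9 and Xcr1, so that it gave no value for them. Leaving out a library lowers the number of samples; the cause of the other shifts was not tested. Genes of few counts, such as Slfn4 and Gm20234, carry the widest errors.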
